A study of Saccharomyces cerevisiae with 11 samples.

Results

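The longest verified proteins of budding yeast, those of 1000 or more codons, were examined in a table that scores candidate translated regions from ribosome footprints of SK1, a strain that sporulates well. An open reading frame (ORF) was taken where the table names it as the annotated ORF of its gene, its length is 1000 codons or more, and the deposited SK1 annotation classifies the gene as Verified. This gave 332 ORFs in 332 genes, out of 192230 candidate ORFs in all and out of 361 annotated ORFs of that length, the others being 26 Uncharacterized and 3 Dubious ones. The other 3652 verified annotated ORFs, all shorter, served for comparison. The rule used length and classification alone and no measured value. The ORFs just inside the limit were CIN8 (1000 codons), FUN12 and DIS3 (1001 each) and ISM1 (1002), and those just outside were ATG9, NUP100 and NMA111 (997 each) and PIP2 (996). The forest score, explained below, was 0.891 to 0.929 in the 4 just inside and 0.805 to 0.937 in the 4 just outside.

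The footprints came from 11 libraries of SK1 cells that had all been treated with 3 µM lactimidomycin (LTM), which arrests ribosomes as they begin translation. Cells in sporulation medium, a starvation medium that induces meiosis, were collected after 0, 1.5, 3, 4.5, 6, 8, 10 and 22 h. MATa/a cells, a mating-type genotype that does not enter meiosis, were collected after 4.5 h in the same medium. Vegetative cells in rich medium were collected in exponential growth (OD600 0.6) and at saturation (OD600 10). Each group had 1 library. The table gives a single value per candidate over the data and none for any library, so that neither stages nor replicates can be compared here and the depth is unknown. All comparisons below are therefore descriptions without a test, and the 95% intervals cover counting error only. Candidates of 1 gene share a leader or a coding region and are not independent.

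Eukaryotic ribosomes mostly load at the capped end of a messenger RNA, scan towards the coding region and start at the first AUG in a favourable setting. Short ORFs in the leader, called upstream ORFs, can catch scanning ribosomes before they reach the main start, and near-cognate codons, which are a single base away from AUG, can also serve as starts. In yeast, large proteins include motor and scaffold proteins, multifunctional enzymes, membrane transporters, giant kinases and ribosome assembly factors, and ribosomes take long to travel through them.

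The starts on which the results below turn are shown in S288C (R64, RefSeq), each as 12 bases before the start codon, the codon in capitals, and 15 bases after it. Each was placed by its distance from the gene's annotated AUG. The first set shows 6 long proteins whose annotated AUG fell below the score limit explained below, each beside the start of the same gene with the highest LTM evidence, which passed it.

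YSP2 annotated AUG (chrIV:1124908-1124937, minus strand): tatccctaaccaATGagggatgaagctact
YSP2 AUG in another frame, 7 nt downstream (chrIV:1124901-1124930, minus strand): aaccaatgagggATGaagctactcgcaaaa
RAV1 annotated AUG (chrX:496434-496463, minus strand): aaggtagttctcATGtcattgaactttctt
RAV1 AUG in another frame, 31 nt downstream (chrX:496403-496432, minus strand): caggacgccccaATGctacccctcagacag
ROM1 annotated AUG (chrVII:627794-627823, plus strand): tttggttaggttATGaatagtaatgaactg
ROM1 AUG in another frame, 40 nt downstream (chrVII:627834-627863, plus strand): ataaatatttttATGagatattcggtaaga
POM152 annotated AUG (chrXIII:527792-527821, plus strand): gaggcttgtataATGgagcacagatataac
POM152 AUG in another frame, 25 nt downstream (chrXIII:527817-527846, plus strand): ataacgtgtttaATGatactccacgaggga
FKS1 annotated AUG (chrXII:809985-810014, plus strand): aacggtcagaccATGaacactgatcaacaa
FKS1 upstream AUU, 51 nt before (chrXII:809934-809963, plus strand): tcgctcaaaaaaATTaaaataagcaagtag
CLU1 annotated AUG (chrXIII:291122-291151, plus strand): tctttaatctctATGagcgagaaaaaagaa
CLU1 in-frame ACG, 213 codons downstream (chrXIII:291761-291790, plus strand): tccaacatcatcACGccgtgcgtcaggtct

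In YSP2 both AUG codons lie in the same 30 bases, so the windows overlap. The second set shows upstream starts with strong evidence and starts that would lengthen or shorten the protein.

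XRN1 upstream AUU, 187 nt before (chrVII:180283-180312, minus strand): gattcttttattATTttctctctgcctttt
SAK1 upstream AUG, 116 nt before (chrV:417153-417182, plus strand): ggaaagtaattgATGttttaagacagtacc
MSN5 upstream UUG, 78 nt before (chrIV:1141078-1141107, plus strand): ttatagtatattTTGttttcttccttttaa
PKH2 upstream AUG, 80 nt before (chrXV:129145-129174, plus strand): agtaacatcttgATGaaccgagaagccact
SYT1 in-frame CUG extension, 25 codons (chrXVI:724775-724804, minus strand): ctattatttactCTGtttcaactcattgta
NAB6 in-frame UUG extension, 21 codons (chrXIII:34168-34197, plus strand): aggaaggggtttTTGatcggctcgaacaag
NTE1 in-frame AUG, 3 codons downstream (chrXIII:158232-158261, minus strand): tgcatgcgttcaATGaattgcactacgaac
ATH1 in-frame AUG, 55 codons downstream (chrXVI:615532-615561, plus strand): cttttactgatgATGctatttttattagct

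The 332 annotated starts were all AUG. Their first and last positions matched the deposited annotation in 332 and 332 cases, and 296 of the proteins have the same length in S288C. Little of these genes is repeated elsewhere in the genome. In 319 of the 332, under 1% of the stretches of 28 bases occur again in the S288C genome. VTH1 and VTH2, near-identical sorting receptors, were the only members with 20% or more, and their values are uncertain. FLO10 followed with 18.75%, then PYC1 with 14.05% and PYC2 with 14.02%. The same limit holds for the repeated parts of these genes.

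The forest score is the output, between 0 and 1, of a random forest that the authors trained on annotated and other coding sequences, and an ORF with a score above 0.5 is called rated here. Of the proteins of 1000 or more codons, 324 of 332 were rated (97.6%, exact 95% interval 95.3 to 98.9), against 3427 of 3652 other verified ORFs (93.8%, 93.0 to 94.6). Among all verified annotated ORFs 94.2% were rated, and among all annotated ORFs of any class 93.3%. Annotated coding sequences trained the score, so these shares are no independent control. The order turned at stricter limits. Above 0.8 there were 80.1% of the long ORFs and 81.3% of the others, and above 0.9 there were 38.6% and 50.5%. The median score was 0.886 (interval 0.879 to 0.893) in the long proteins and 0.901 (0.897 to 0.903) in the others, so the long proteins had fewer very low and fewer very high scores.

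3 further scores describe each ORF. The LTM evidence is the deposited regression statistic for initiation at the start codon. The CHX strength and the CHX stop evidence come from a second data set named CHX, which the notes do not describe further; the strength measures how much footprint density the regression assigned to the ORF, and the stop evidence measures the support for its stop codon. Median LTM evidence was 4589 (interval 3461 to 6456) in the long proteins and 3041 (2837 to 3244) in the others. Median CHX strength went the other way, with 0.185 (0.161 to 0.205) in the long proteins and 0.343 (0.320 to 0.370) in the others. Median CHX stop evidence was 992.5 in the long proteins and 590.9 in the others. No scaling to length or depth is stated for any of these scores, so they are not compared as levels of translation.

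These differences formed part of a run over length. In 6 length classes, divided at 120, 250, 500, 1000 and 1500 codons and taken from short to long, median CHX strength was 1.40, 0.574, 0.331, 0.233, 0.189 and 0.178. Median LTM evidence over the same classes was 2324, 2732, 2987, 3736, 4284 and 6858. The median forest score was 0.928, 0.918, 0.899, 0.890, 0.885 and 0.889. Thus the proteins of 1000 to under 1500 codons differed from those of 500 to under 1000 codons by less than the shortest classes differed from each other in score and strength. Within the 332 long proteins, length had a Spearman correlation of -0.01 with the forest score, 0.06 with LTM evidence, -0.05 with CHX strength and 0.23 with CHX stop evidence (n = 332 genes, all from the same table, given as a description).

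**Figure D1:**
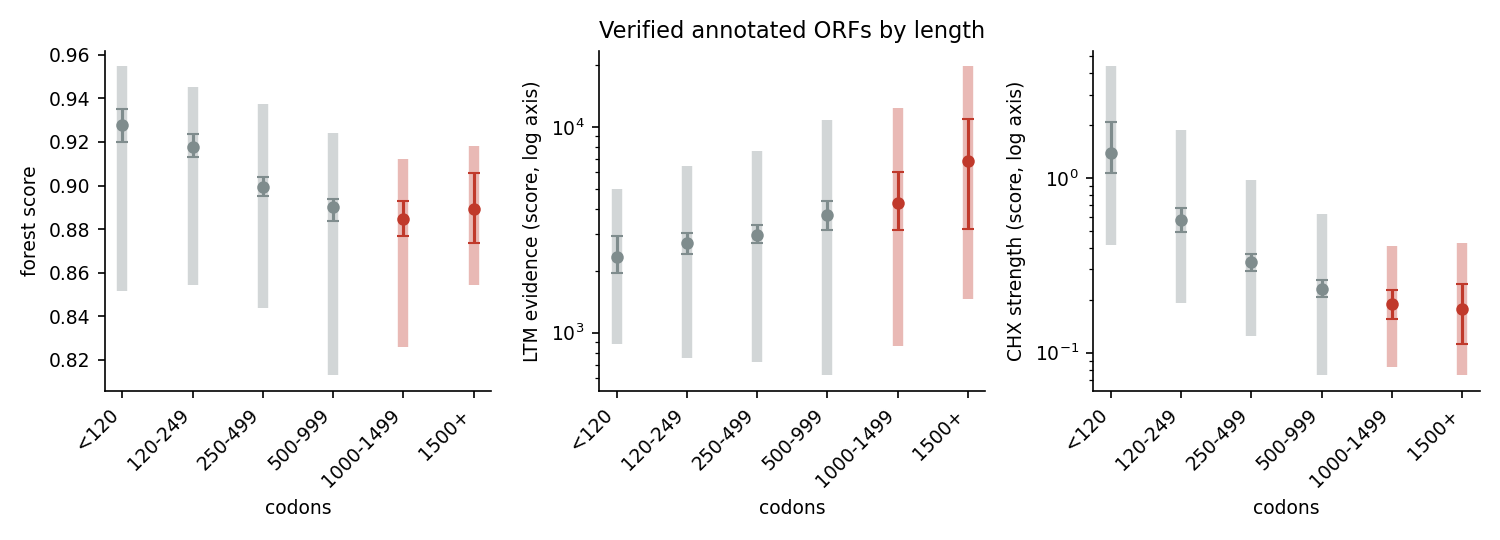
Forest score, LTM evidence (log axis) and CHX strength (log axis) of verified annotated ORFs in 6 length classes, in codons. Points are medians, whiskers their 95% intervals and wide bars the interquartile ranges, with the 2 classes of 1000 or more codons in red and shorter ones in grey; median LTM evidence climbs to 6858 in the longest class while median CHX strength declines to 0.178.

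The 10 longest proteins were all rated. The longest was REA1, also known as MDN1, a dynein-related ATPase of ribosome assembly with 4910 codons on SK1 chromosome 12 (361643 to 346911, minus strand), with a score of 0.898. DYN1, the heavy chain of cytoplasmic dynein (4092 codons), had a score of 0.935 and LTM evidence of 63123. TRA1, a shared subunit of the SAGA and NuA4 acetyltransferases (3744 codons), scored 0.921. TOM1, a ubiquitin ligase (3268 codons), scored 0.945 and had the third-highest LTM evidence among the long proteins, 105006, together with the highest CHX stop evidence, 5001. VPS13, a lipid transfer protein that is also needed for the prospore membrane (3144 codons), scored 0.768 despite LTM evidence of 28188. IRA1, an inhibitor of Ras (3092 codons), scored 0.876 with LTM evidence of 589. The other 4 were CSF1 (0.894), GCN1, the activator of the Gcn2 kinase (0.853), UTP20, a factor of small-subunit assembly (0.925), and TOR2, a TOR kinase (0.795). LTM evidence among the 10 thus ranged widely, and the lowest of their scores was that of VPS13.

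The 10 highest scores included those of large biosynthetic enzymes. SUM1, the repressor of middle sporulation genes, led with 0.987, followed by URA2, the first enzyme of pyrimidine synthesis (0.973), FAS1, the beta subunit of fatty acid synthase (0.972), and ADP1, an ABC transporter (0.971). AKL1, a protein kinase (0.967), FAS2, the alpha subunit of fatty acid synthase (0.967), TAF2, a subunit of TFIID (0.966), ARO1, the multifunctional enzyme of aromatic amino acid synthesis (0.963), SEC31, a COPII coat protein (0.961), and INP53, a phosphoinositide phosphatase (0.959), made up the 10.

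LTM evidence ran from 0.000732 in SWH1, far below any other member, to 123179 in MYO1, the heavy chain of the cytokinetic myosin. ATG2, a lipid transfer protein of autophagy, followed with 123095. After TOM1 came NUP116, a nuclear pore protein, with 103444, and SEC3, a subunit of the exocyst, with 80628. Next above SWH1 came SRB8, a subunit of Mediator, with 1.25. RAV1 had 2.04, and KRE33, the acetyltransferase of 18S ribosomal RNA, had 2.09. SRB8 and KRE33 were still rated, with 0.568 and 0.533. In 32 of the 332 the evidence was below 100, and in 9 below 10. LTM evidence and CHX strength both enter the forest score, and across the 332 they had Spearman correlations of 0.73 and 0.56 with it, and of 0.29 with each other.

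**Figure D2:**
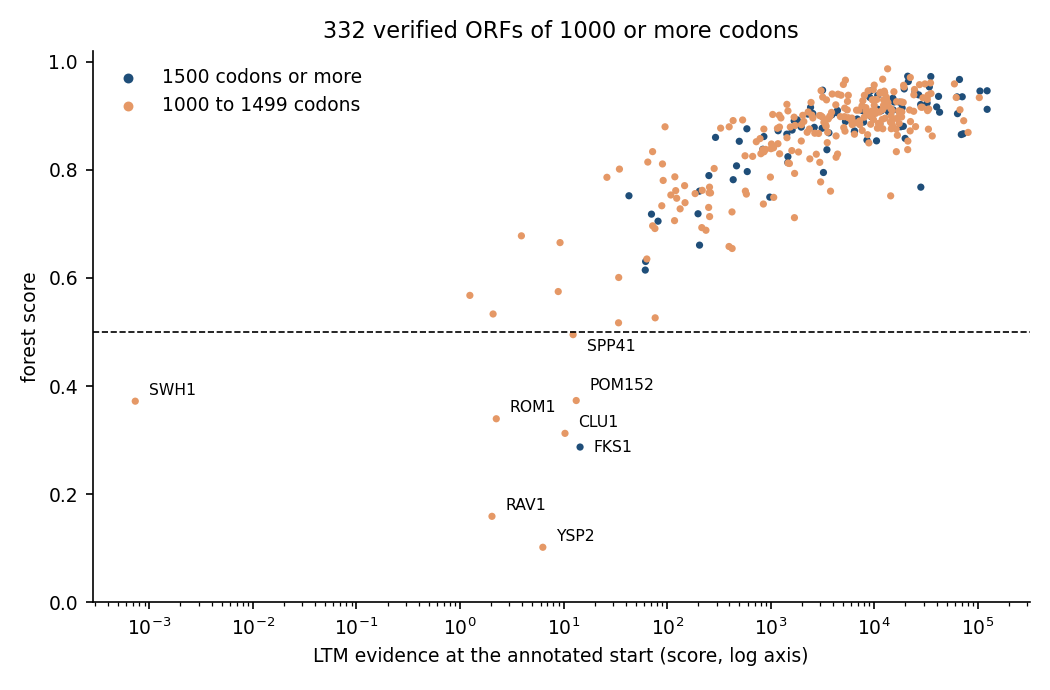
Forest score against LTM evidence at the annotated start (log axis) for each of the 332 ORFs, with those of 1500 or more codons in blue and the shorter ones in orange. The dashed line is the limit of 0.5; the 8 named ORFs below it all have LTM evidence of 14.4 or less.

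The 8 long proteins that were not rated had little LTM evidence at their annotated AUG, but most had a footprint signal at the stop. YSP2, a sterol transfer protein, had the lowest score, 0.102, with LTM evidence of 6.31 and CHX stop evidence of 1090. RAV1, a factor for assembly of the vacuolar proton pump, had 0.159, 2.04 and 996 for the same 3 scores, and FKS1, a catalytic subunit of the cell wall glucan synthase, had 0.287, 14.4 and 1031. These 3 stop values lie above or near the median of the long proteins, 992.5. CLU1, a protein linked to mitochondrial distribution, had a score of 0.313, LTM evidence of 10.3 and CHX stop evidence of 1133. ROM1, an exchange factor for Rho1, had 0.340, 2.24 and 348 for these scores, and POM152, a membrane protein of the nuclear pore, had 0.373, 13.3 and 151. SPP41 missed the limit narrowly with a score of 0.495, LTM evidence of 12.4 and CHX stop evidence of 192. SWH1, an oxysterol-binding protein, was low in all 3 of these: its score was 0.372, its LTM evidence 0.000732 and its CHX stop evidence 2.31. Its CHX strength was 0.228, above the median of the long proteins, 0.185. CHX strength was also above that median in CLU1 (1.03) and SPP41 (0.333). It was below it in YSP2, RAV1, FKS1, ROM1 and POM152.

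In 7 of these 8 genes another candidate had more LTM evidence than the annotated AUG. In 4 it was an AUG in another frame shortly downstream. In RAV1 an AUG 31 nt into the coding region had LTM evidence of 7418 and a score of 0.894, 3641 times the evidence of the annotated AUG. ROM1 had such an AUG at 40 nt with 4977 and a score of 0.892, and YSP2 at 7 nt with 1458 and a score of 0.908. In POM152 the AUG at 25 nt had 701 and a score of 0.786. In FKS1 the strongest start was an AUU that opens an upstream ORF of 5 codons, 51 nt before the AUG, with LTM evidence of 15119 and a score of 0.856. FKS1 had 15 candidate upstream ORFs, of which 8 were rated, more than most of the long genes. In CLU1 it was an in-frame ACG 213 codons downstream, with 983 and a score of 0.746. The CHX strength of this shorter CLU1 ORF was 0.114, against 1.03 for the annotated one. For YSP2, the AGG codon right after the annotated AUG, which would shorten the protein by 1 codon, also passed with 0.512. Here the order of CHX strength was the other way, 0.322 for the AGG ORF and 0.0175 for the annotated one. SWH1 had no candidate with LTM evidence above 0.0425, and in SPP41 the annotated AUG was the highest. The deposited notes warn of many false calls among internal ORFs and truncations, and which of these starts is used was not tested.

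Among all 332 genes, the annotated AUG had the highest LTM evidence of all candidates of the gene in 232 (69.9%, 64.6 to 74.8), against 2847 of 3646 other verified genes (78.1%, 76.7 to 79.4). In the other 100 long genes the highest evidence lay at an upstream ORF in 60, at an internal ORF in another frame in 24, at an ORF that overlaps the annotated start in 9, at a truncation in 6 and at an extension in 1. Of the 3646 shorter genes, these classes held it in 354, 245, 107, 83 and 9, in the same order. Long genes had more internal and upstream candidates per gene, a mean of 50.3 and 7.23 against 16.8 and 5.94. They had fewer truncations, 4.67 against 5.88. Shares per candidate were not compared for this measure. This measure was looked at only after the table had been examined.

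Upstream ORFs were rated more often in front of long proteins. Of 2401 candidates in 305 of the long genes, 813 were rated (33.9%, 32.0 to 35.8), against 4503 of 21663 candidates at other verified genes (20.8%, 20.2 to 21.3). Over the upstream ORFs of all genes the share was 22.0%. A gene with a long protein had a mean of 7.23 candidates and 2.45 rated ones, and other verified genes had 5.94 and 1.23. At least 1 upstream ORF was rated in 231 of the 332 long genes (69.6%), against 51.2% of the others. Above 0.8 the shares were 9.83% and 4.57% and above 0.9 they were 2.37% and 1.14%, the long genes first. Above 0.1, a limit that nearly all candidates pass, they were 97.1% and 97.8%.

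The share climbed with the length of the downstream protein over all 6 length classes. It was 8.93% in genes of under 120 codons, then 13.97%, 20.62%, 25.78%, 32.26% and, at 1500 or more codons, 37.55% (34.02 to 41.19). It was higher in the long genes for each of the 10 start codons. UUG was rated in 55.2% of 442 candidates (50.4 to 59.9) in long genes and in 31.7% of 3406 in the others. CUG had 41.8% and 25.3%, and AUG had 34.4% and 27.3%, in the same order. Even AGG (11.8% and 3.43%) and AAG (7.19% and 3.30%), the codons with the lowest shares, followed this order. Among the rated upstream ORFs themselves, AUG made up a smaller part in the long genes, 16.6% against 34.8%, and UUG a larger one, 30.0% against 24.0%. The candidates, rated or not, already differed in the same direction, with a smaller part of AUG and a larger part of UUG in the long genes. The parts among rated upstream ORFs therefore do not by themselves show a difference in start use.

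**Figure D3:**
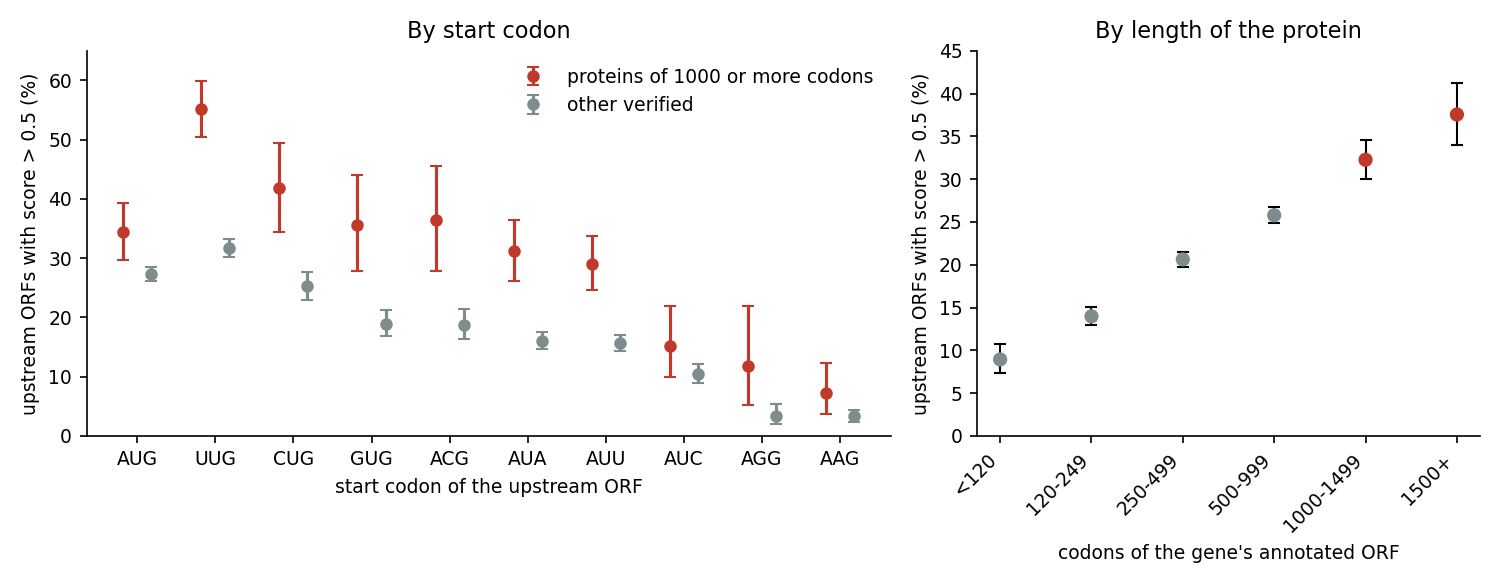
Share of candidate upstream ORFs with a forest score above 0.5, in percent with exact 95% intervals, by start codon (left, long proteins in red beside other verified genes in grey) and by length of the annotated ORF (right). Points for the long proteins lie above those of the others for all 10 codons, and the share climbs from the shortest class to 37.6% in the longest.

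The difference was present at every level of the annotated start that was compared. When all verified genes with an annotated ORF were divided into 4 groups of equal size by LTM evidence of the annotated start, the share in long genes was 32.6%, 36.0%, 39.5% and 30.3% from the lowest group to the highest, and in the others 23.2%, 20.8%, 20.2% and 18.5%. In 4 such groups by CHX strength it was 34.1%, 32.5%, 35.8% and 31.7% in long genes, and 26.1%, 23.1%, 20.4% and 15.2% in the others. In the others the share thus declined as the annotated ORF became stronger, and in the long genes it lay between 31.7% and 35.8% in the groups by CHX strength, with no steady decline. Genes with more candidates also had a larger share of them rated. With 1 to 3 candidates it was 23.0% in long genes and 16.7% in the others, and with 13 or more it was 37.1% and 24.4%. Leader lengths were not compared.

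The rated upstream ORFs of long proteins were short. Their median length was 11 codons (interquartile range 6 to 18), against 10 (5 to 17) at other verified genes, and they began a median of 142 nt before the annotated AUG, against 115 nt. Their LTM evidence was a median of 0.0259 times that of the annotated AUG of the same gene (0.0193 times in the others), and in 114 of the 813 (14.02%) it was higher than at the annotated AUG, against 729 of 4503 (16.19%) in the others.

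ACC1, the acetyl-CoA carboxylase, had the most, 16 rated of 23 candidates, between 54 and 497 nt before its AUG and from 8 different codons. Their LTM evidence summed to 6.86 times that of the AUG. REG1, a regulatory subunit of protein phosphatase 1 (22 candidates), MSN5, a nuclear exportin (17), GSC2, the glucan synthase subunit used in spore wall formation (26), and PSK2, a PAS-domain kinase (24), had 12 rated ones each. In MSN5 the sum was 159 times the evidence of the annotated AUG. In PSK2 it was 0.184 times, so a large number of rated upstream ORFs went with a strong annotated start as well as with a weak one.

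The highest scores among upstream ORFs of long proteins were those of PKH2, XRN1, SAK1, GLT1 and SWI1. PKH2, a kinase of sphingoid base signalling, had an AUG upstream ORF of 7 codons with 0.969. XRN1, the cytoplasmic 5′ to 3′ exonuclease, had an AUU upstream ORF of 25 codons with 0.960 and LTM evidence of 36850, whereas its annotated AUG had 81.8, a ratio of 451. SAK1, a kinase that activates Snf1, had an AUG upstream ORF of 2 codons with 0.952 and 109 times the evidence of its annotated start. GLT1, the glutamate synthase, had a UUG upstream ORF of 2 codons with 0.951 and a ratio of 1.25. SWI1, a subunit of the SWI/SNF chromatin remodeller, had a UUG upstream ORF of 13 codons with 0.947 and a ratio of 41.5.

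In 68 of the 332 genes (20.5%) at least 1 rated upstream ORF had more LTM evidence than the annotated AUG, against 11.8% of other verified genes. It had over 10 times as much in 22 of the 68 long genes, against 193 of the 429 other genes. Large excesses thus made up a smaller part of the genes with any excess. Out of all genes they were 22 of 332 and 193 of 3646, which is not a smaller share in the long genes. Per rated upstream ORF, as given above, the order for any excess was the reverse of that per gene. Besides FKS1, XRN1 and SAK1, the 22 were led by DNF1, a phospholipid flippase (AUG, 270 times), ECM5 (AUG, 219 times) and PDR12, an exporter of weak acids (AUG, 204 times). All 3 annotated starts were rated nonetheless, at 0.630, 0.768 and 0.615. CDC60, the cytosolic leucyl-tRNA synthetase, had an AUG upstream ORF of 5 codons with 85.6 times the evidence of its annotated AUG. The genes in this paragraph were chosen after their values were seen.

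ORFs that begin in the leader and overlap the annotated start in another frame showed the same order. Of 481 candidates at long proteins 130 were rated (27.0%, 23.1 to 31.2), against 834 of 4326 at other verified genes (19.3%, 18.1 to 20.5), with 20.2% over all genes. For AUG starts the numbers were small and the intervals overlap. They were 12 of 18 in long genes (66.7%, 41.0 to 86.7) and 198 of 386 in the others (51.3%, 46.2 to 56.4).

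N-terminal extensions, which begin upstream in the frame of the protein, were few. The long proteins had 75 candidates in 59 genes, with 0 AUG starts among them, and 8 were rated (10.7%, 4.72 to 19.9). Other verified ORFs had 64 of 1997 (3.20%, 2.48 to 4.07), and the share over all genes was 4.57%, or 3.64% for near-cognate and 40.6% for AUG starts. With 8 rated extensions the interval of the long proteins is wide. SYT1, an exchange factor for Arf, had a CUG extension of 25 codons with a score of 0.867 and 10.7 times the LTM evidence of its AUG, the only one of the 8 with more evidence than the annotated start. In NAB6, which encodes an RNA-binding protein, a UUG start added 21 codons, with a score of 0.868 and 0.618 times the evidence. LEC1 (CUG, 19 codons, 0.767) and KEL1, a protein of polarised growth (AUU, 20 codons, 0.526), had 0.242 and 0.143 times. The other 4 lengthened the protein by 1 codon: BBC1 (AGG, 0.832), BOI2 (AAG, 0.599), GCN1 (GUG, 0.528) and RPB2, the second-largest subunit of RNA polymerase II (AGG, 0.504). At 1 codon from an AUG, the 2 starts lie 3 bases apart.

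Truncations, which begin inside the coding region in its frame, were rated in 22 of 1550 candidates at long proteins (1.42%, 0.892 to 2.14), against 423 of 21441 at other verified ORFs (1.97%, 1.79 to 2.168) and 2.71% over all genes. For AUG starts these shares were 8 of 221 (3.62%, 1.58 to 7.01) and 220 of 3028 (7.27%, 6.37 to 8.25), with 10.3% over all genes. The order depended on position, given here and for internal ORFs below over genes with 1 coding exon. The share of truncations was 8.77% (2.91 to 19.3) in long genes and 12.4% (10.6 to 14.5) in the others within the first 30 nt, and 3.18% and 3.35% from 30 to under 150 nt. From 150 to under 300 nt it was 1.58% (3 of 190) in long genes and 0.653% (30 of 4597) in the others, and from 300 to under 1000 nt it was 2.05% (5 of 244, 0.669 to 4.72) and 0.578% (38 of 6570, 0.410 to 0.793). From 1000 to under 3000 nt it was 0.302% (1 of 331) in long genes and 1.04% in the others. Beyond 3000 nt, which holds 32.6% of the candidates of long genes and 0 of the others, 1 of 503 was rated. The deposited notes warn that truncations and internal ORFs carry a very high rate of false calls from elongating ribosomes, and each of these is to be read with that limit. The 8 AUG truncations were in NTE1, a phospholipase (3 codons downstream, score 0.854), ATH1, the acid trehalase (55 codons, 0.844), ECM21, an arrestin-like adaptor (40 codons, 0.811), KCC4, a septin-associated kinase (80 codons, 0.694), SEF1 (18 codons, 0.667), VPS3, a vacuolar tethering protein (5 codons, 0.630), TOR2 (189 codons, 0.579) and IQG1, the yeast IQGAP of cytokinesis (1243 codons, 0.570). In NTE1 the LTM evidence of the second AUG was 1.82 times as high as at the first, and in ATH1 17.4 times. In the other 6 it had 0.626 times or less. Near-cognate truncations were rated in 14 of 1329 cases at long proteins (1.05%) and in 203 of 18413 at the others (1.10%), with 1.38% over all genes. Of these, CAF120, a protein of the Ccr4-Not complex, had an AUU 2 codons downstream with a score of 0.823 and 18.2 times the evidence of its AUG, and was named after its value was seen.

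Internal ORFs in another frame were the most numerous candidates, since long coding regions offer more of them. The long genes held 16692, a mean of 50.3 per gene, against 16.8 in the others, or 12.02 and 13.12 per kilobase. Of these, 1335 were rated (8.00%, 7.59 to 8.42), against 6333 of 61210 (10.3%, 10.1 to 10.6) in the others and 10.3% over all genes. The order depended on position. Within the first 30 nt the share was 47.2% (40.4 to 54.1) in long genes and 39.2% (37.0 to 41.4) in the others, and from 30 to under 150 nt it was 21.7% and 21.2%. It then declined to 10.8% and 9.72% from 150 to under 300 nt, and to 7.83% and 6.85% from 300 to under 1000 nt. From 1000 to under 3000 nt it was 5.75% (5.22 to 6.31) in long genes and 6.96% (6.52 to 7.41) in the others, and beyond 3000 nt, where the long genes alone have candidates, it was 5.25%. Thus candidates far into the coding region, 43.1% of those of long genes at 1000 to under 3000 nt and 16.7% beyond, had the low shares. VPS13 had the most rated internal ORFs of the 332, 32 of 150. At the end of the coding region, ORFs that overlap the stop codon were rated in 6 of 61 cases at long proteins (9.84%, 3.70 to 20.2) and in 55 of 761 at the others (7.23%), with 7.87% over all genes. ORFs downstream of the stop were rated in 0 of 12 cases at long proteins, which allows a share of up to 26.5%, and in 1.04% at the others, with 2.70% over all genes.

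**Figure D4:**
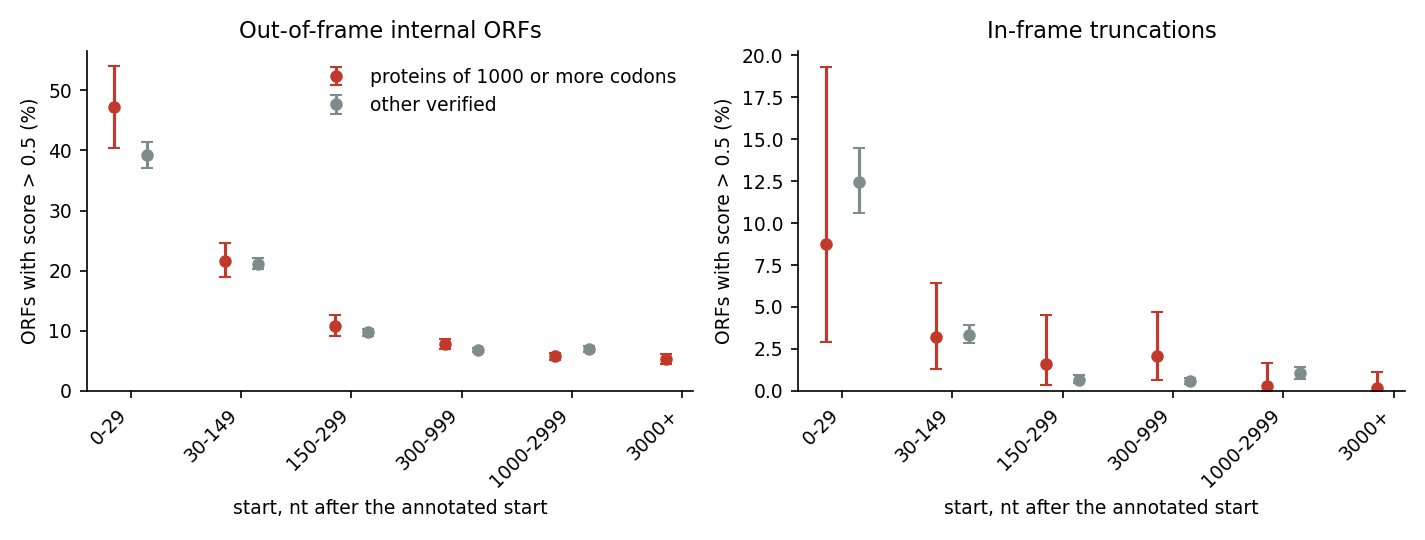
Share of candidate ORFs inside coding regions with a forest score above 0.5, in percent with exact 95% intervals, by distance of their start from the annotated start in nt, for internal ORFs in another frame (left) and in-frame truncations (right). Long proteins are in red and other verified genes in grey; the internal share declines from 47.2% within 30 nt of the start to 5.25% beyond 3000 nt in the long proteins.

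A further measure compares the annotated ORF with other ORFs that end at the same stop codon. The annotated ORF of a long protein had less CHX strength than another such ORF in 85 of 332 cases (25.6%, 21.0 to 30.6), against 1324 of 3652 other verified ORFs (36.3%, 34.7 to 37.8), with 36.2% over all annotated ORFs. The share lay between 35.7% and 36.7% in the 4 length classes below 1000 codons, at 27.3% from 1000 to under 1500 and at 20.7% (12.8 to 30.7) from 1500 on. An annotated ORF can be the weaker one only where another candidate ends at its stop codon. Long genes had fewer of these, a mean of 4.67 truncations and 0.226 extensions per gene against 5.88 and 0.547. Whether this accounts for the lower share was not tested. In 79 of the 85 the stronger ORF was a truncation, of which 8 were rated, and in 6 it was an extension, of which 4 were rated. PAN2, the catalytic subunit of a poly(A) nuclease, had the lowest ratio, 0.0123 of the strongest ORF, and the lowest CHX strength of the long proteins, 0.000618. ATG11, an adaptor of selective autophagy, followed at 0.0194, then NMD5, an import receptor, at 0.0394, UBA1, the ubiquitin-activating enzyme, at 0.0424, and EDE1, an endocytic scaffold, at 0.0477. In each of these 5 the stronger ORF had LTM evidence of 0.212 or less at its start and a score of 0.308 or less, whereas the annotated AUG had 396 to 14413 and a score of 0.654 to 0.814.

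Grouped by function, the metabolic enzymes stood highest in CHX strength. The lists were written from general knowledge with earlier results of these data known, and 226 of the 332 fell in at least 1 of 16. Of 18 long enzymes of carbon, nitrogen and nucleotide metabolism, 16 were above the median of the 332 in CHX strength, with a median of 1.23 in the 18 and 0.185 over all 332. FAS2 had 10.1, KGD1, a subunit of 2-oxoglutarate dehydrogenase, 7.85, GDH2, the NAD-dependent glutamate dehydrogenase, 4.70, FAS1 4.01, ACC1 2.95 and PYC1, a pyruvate carboxylase, 2.62. ADE6, an enzyme of purine synthesis, was among the 2 below the median, at 0.0407. All 18 were rated, with scores of 0.823 in ADE6 and higher in the rest.

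Factors of translation and aminoacyl-tRNA synthetases had the next-highest median CHX strength, 0.479 in 13 members, 8 of them above the median of the 332, and included CLU1. The 22 ribosome assembly and RNA processing helicases and factors had a median of 0.155, with 5 above. Small GTPase regulators (14 members, median 0.127) had 51 of 105 candidate upstream ORFs rated, or 48.6%, the highest share of the 16 lists. Over all 332 long genes the share was 33.9%, and over all genes 22.0%. Candidates of 1 gene are not independent, and the 105 come from few genes. ROM2, an exchange factor for Rho1, had 7 of 12 rated and CDC25, an exchange factor for Ras, 5 of 7. The lowest share, 22.7%, belonged to the myosins, kinesins, dynein and cytoskeletal proteins, 15 of 66. Of the 13 members of the list for ubiquitin ligases, deubiquitinases and proteasome, TOM1 alone was above the median of the 332 in LTM evidence, 4589. The median of the 13 was 1808. ECM29 was counted in the list for translation rather than in that list, and its LTM evidence was 15143.5. The cytoskeletal list had the highest median LTM evidence, 11353, with 9 of its 12 members above, DYN1 and MYO1 among them.

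Protein kinases and the TOR pathway were the largest list, with 23 members, all rated. AKL1 (0.967) and KOG1, a subunit of TORC1 (0.944), scored highest, and KIN2 (0.713) and MEC1, the checkpoint kinase (0.718), lowest. The 20 nuclear pore proteins and transport receptors had a median CHX strength of 0.235. NUP116 at 1.89 and NMD5 at 0.00331 marked the ends. Among 15 transport ATPases and ABC transporters, ADP1 scored 0.971, whereas STE6, the exporter of the a-factor pheromone, scored 0.575 with CHX stop evidence of 0.0169, the lowest of all 332. In the list for chromosome structure, 11 members had scores between 0.837 (YCS4, a condensin subunit) and 0.948 (PDS5, a cohesin-associated protein). HFM1, a helicase of meiotic recombination, was the second-highest of 7 in the list for mitosis, meiosis and sporulation, with 0.940. That list is not complete: SUM1 (0.987) and SPO14 (0.853) were not placed in it.

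**Figure D5:**
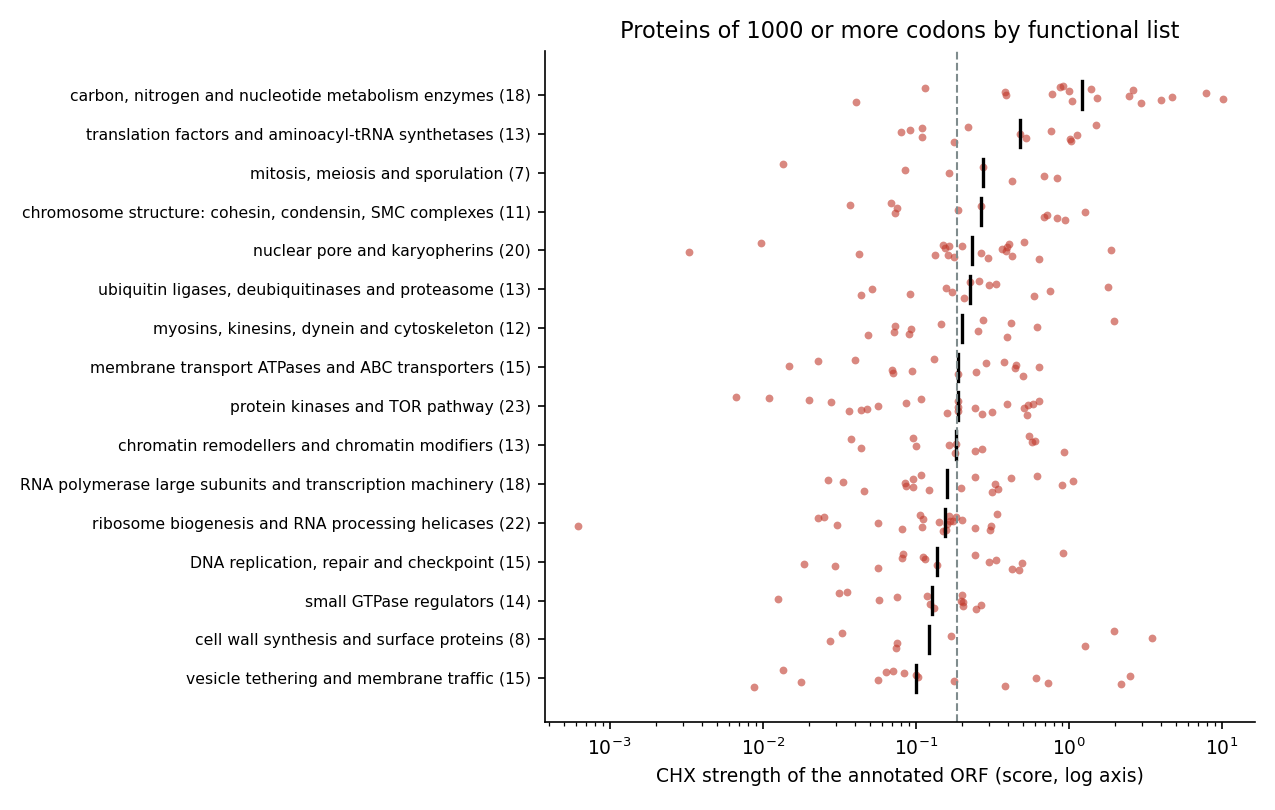
CHX strength of the annotated ORF (log axis) for the long proteins in 16 functional lists, with the number of members in parentheses; each point is a gene, the short bar is the median of the list and the dashed line is the median of all 332, 0.185. The metabolic enzymes have the highest median, 1.23, and the list for vesicle tethering and membrane traffic the lowest, 0.101.

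The bases around the annotated AUG were read from S288C. The long proteins had A at position -3, counted back from the A of the AUG, in 193 of 332 cases (58.1%, 52.6 to 63.5), and other verified genes in 2363 of 3643 (64.9%, 63.3 to 66.4). They had G at -3 in 21.1% and 18.5%, and A at -1 in 40.4% and 45.3%, the long proteins first. Within the long proteins, the 193 with A at -3 had a median LTM evidence of 4426 (3433 to 6569) and the 70 with G a median of 7565 (2366 to 10886), intervals that overlap.

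The rule can find only ORFs that are rows of the table used here. The deposited annotation has 435 Verified genes with a coding length of 1000 or more codons, and 332 of them have such a row (76.3%, 72.0 to 80.2), against 3646 of 4215 other Verified genes (86.5%, 85.4 to 87.5). In 44 of the 103 others the annotated coding length is not a multiple of 3, which is true of 0 of the 332. Of the remaining 59, candidates of other classes are present for 55. The 103 include the flocculation genes FLO1, FLO5, FLO9 and FLO11, the kinase gene TEL1, POL2, the catalytic subunit of DNA polymerase epsilon, and IRA2, the second Ras inhibitor. These were not analysed here, and nothing above extends to them.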

How the data were processed

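The values are those of a table of 192230 candidate ORFs of 17 classes that the authors deposited with notes and an SK1 annotation. Per the notes deposited with the table, ORF-RATER regressions on LTM footprints and on a data set named CHX gave the start and stop statistics, and the forest score is the output of a random forest for which annotated coding sequences were training data. All of these deposited values are in the unit score, with no stated scaling. The strength of an ORF divided by that of the strongest one at its stop codon was deposited as a fraction. Column names carry the ending nosat, which is not explained. Reads went through bcl2fastq 2.17, CASAVA and Bowtie2, per the submitters' processing notes; how these were set is not given in the sources used here. There are 0 columns for single libraries, so conditions could not be compared and depth is unknown.

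Rated means a forest score above 0.5, the higher of the 2 cut-offs in the notes. Shares have exact Clopper-Pearson 95% intervals and medians have binomial order-statistic intervals, computed with Python 3.11.15, pandas 2.3.3 and scipy 1.17.1, and checked on simulated tables. No hypothesis test was run. Positions of ORFs are SK1 positions counted from 1. Symbols and sequences come from S288C by locus tag, and a window is shown only where the same codon, and outside internal ORFs the same reading frame, was found there. No SK1 genome sequence was used.

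Named were the 10 longest and 10 highest-scoring ORFs, those not rated, the 5 with the highest and lowest LTM evidence, rated extensions, rated AUG truncations, the 5 genes with most rated upstream ORFs and the 5 best upstream ORFs, and the ends of each list by score. The highest and lowest by CHX strength, and genes singled out for a ratio of 2 starts or a ratio within a stop codon, were chosen after their values were seen. The ORFs and lists were chosen with earlier results of these data known. Other cut-offs and length limits were tried as alternatives.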

Additional observations from a re-analysis of the deposited data

How the results depend on the processing

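Of 9 results recomputed under 46 alternatives, 20 values kept within their interval and order, 20 moved and 6 turned the order. Each cut-off moves a share by construction; for the other changes the cause was not tested. The share of long ORFs with a passing score turned against other verified ORFs above 0.8 (80.1%, others 81.3%) and above 0.9 (38.6%, 50.5%), and moved to 100% above 0.1 and 94.8% from 800 codons on. Upstream ORFs turned above 0.1 (97.1%, 97.8%) and moved to 9.83% above 0.8 and 2.37% above 0.9. They moved to 36.5% from 1200 codons on and 37.6% from 1500, and, in alternatives added after the data were seen, as were those 2, to 31.6% without the 12 genes with most rated ones and 75.7% with each gene once. Extensions turned above 0.9 (0%, 0.1002%) and moved to 32.0% above 0.1 and 4% above 0.8. Truncations moved to 16.3%, 0.387% and 0% above 0.1, 0.8 and 0.9, and to 3.62% for AUG alone. Internal ORFs turned above 0.1 (94.8%, 94.1%) and within 150 nt of the start (27.0%, 25.02%, added later), and moved to 0.617% above 0.8, 0.120% above 0.9 and 6.30% from 300 nt on (added later). Median LTM evidence moved to 6858 from 1500 codons on, and the share of genes with a row to 80.7% from 800 codons on and 71.9% from 1500. Without VTH1 and VTH2, median LTM evidence was 4447. No paired analysis was possible because each group has 1 library and the values are not split by library.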
